A study of Mus musculus with 18 samples.

Results

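The genes examined were Zbp1, Ripk3, Mlkl and Pgam5, which encode proteins of necroptosis acting with or downstream of the kinase RIPK1. They were chosen by name, as the 4 targeted genes of that kind among the 76 genes of a pooled CRISPR knockout screen, and each was covered by 3 single-guide RNAs (sgRNAs), giving 12 of the 252 sgRNAs counted. The remaining sgRNAs comprised the other targeted genes and 24 non-targeting controls. The screen was run in sensBa/F3 cells, a derivative of Ba/F3, a mouse pro-B cell line that depends on interleukin-3. The library was transduced into these cells as they were (ITPK1-WT) and into cells lacking the inositol phosphate kinase ITPK1 (ITPK1-KO), which were a mixture of 6 clones with deletions in ITPK1 and no integrated lentivirus. Each pool was grown for 10 days. The pools were then marked with different tracking dyes, violet for ITPK1-WT and yellow for ITPK1-KO, combined in equal numbers and given into the peritoneal cavity of 8 mice at 20000000 cells each. All 8 mice carried human CD89, the myeloid receptor for IgA, as a transgene whose promoter is not given in the sources used here. By the authors' sample legend, mice 5 to 8 received an IgA antibody against human Her2 and mice 1 to 4 received PBS, here called vehicle. After 16 h the viable cells of each background were sorted and their integrated sgRNAs were sequenced, which gave 16 recovered libraries and 1 library per background from before injection. Dye and genotype cannot be told apart in this design, and counts of sgRNAs in DNA hold no expression by which the cell line could be checked.

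In necroptosis a cell bursts through the action of its own proteins. RIPK3 is the kinase at the centre of the pathway. It is brought into a signalling complex by RIPK1 after stimulation of tumour necrosis factor receptor 1, or by ZBP1, a sensor of nucleic acids in the left-handed Z form, through a motif that all of them share. RIPK3 phosphorylates MLKL, which assembles at the plasma membrane and makes it leaky. PGAM5 is a phosphatase of mitochondria that was described as a partner of RIPK3, and its part in the pathway is disputed. Inositol phosphates produced through IPMK and ITPK1 are known to bind MLKL and to be needed for its activation in human cells. Caspase-8 and its adaptor FADD hold the pathway in check, whereas the deubiquitinase CYLD and its partner SPATA2 act on the ubiquitin chains that restrain RIPK1.

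The 12 sgRNAs are shown because every result below is a count of these sequences in recovered cells. The 10 bases nearest the PAM, which weigh most in target recognition, are in capitals, and sequences read 5′ to 3′ as deposited.
Zbp1-sg-1: tgtgctgacaAATAATCGCA
Zbp1-sg-2: tgagctatgaCGGACAGACG
Zbp1-sg-3: ccacgaggctCATCTCGTTG
Ripk3-sg-1: gagttaatgaTTCATTGCTG
Ripk3-sg-2: ggcctgtccaCGTTTCAGGG
Ripk3-sg-3: gtgtaggaagAAGATATCCT
Mlkl-sg-1: gcacacggttTCCTAGACGC
Mlkl-sg-2: gatgcagttgCAAATTAGCG
Mlkl-sg-3: aggaacatctTGGACCTCCG
Pgam5-sg-1: agtcatacctAATGGTGTCA
Pgam5-sg-2: gcggtagggaAGCCGCGAGG
Pgam5-sg-3: agcacagactTGCTACGGGA
Their GC content ran from 35% in Ripk3-sg-1 to 75% in Pgam5-sg-2, against a median of 50% over the library. Each differed from every other sgRNA of the library at 8 or more of its 20 positions, and reads with mismatches had been removed before counting. How completely each sgRNA disrupted its gene was not measured. The 3 sgRNAs of a gene share their target and are not replicates of a condition, so conditions were compared over mice.

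Read totals ran from 317564 to 808586 per library. The 12 sgRNAs had 547 to 4471 reads in each of the 18 libraries, with a median of 2084.5, and together made up 4.35% to 4.60% of a library. No count among them was 0. Counting error alone gives a single value of these sgRNAs a standard error of 0.022 to 0.062 on the log2 scale. Reads carry no molecular identifiers, so this covers counting error only. The sorts yielded 657000 to 2000000 cells per recovered library, and every sort below 2000000 cells came from an IgA mouse. The number of cells behind a value therefore moves with the arm, and its part in the results was not tested.

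Before injection the 4 targets differed in abundance. In the ITPK1-WT pool, sgRNAs of Zbp1 stood at 85.5% of the mean non-targeting sgRNA, those of Mlkl at 61.6%, those of Ripk3 at 55.4% and those of Pgam5 at 52.6%. The median targeted gene stood at 68.6%. Zbp1 thus ranked 12th of 76 genes from the top, and the other 3 lay below the median. The order was the same in the ITPK1-KO pool, with 88.6% for Zbp1, 64.2% for Mlkl, 58.2% for Ripk3, 56.6% for Pgam5 and 70.6% for the median gene. With 1 library per pool these differences have no replicate check, and the abundance of the sgRNAs in the plasmid stock was not analysed here. Among single sgRNAs, Zbp1-sg-1 was the most abundant in both pools (94.2% and 102% of the mean non-targeting sgRNA). Pgam5-sg-2, the sgRNA of highest GC content, was the least abundant (34.1% and 30.6%). Pgam5-sg-3 differed most between the pools, with a log2 difference of 0.31 in favour of ITPK1-KO.

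The first comparison asked whether cells that had lost one of these proteins made up a different share of the surviving ITPK1-WT cells under IgA. Of the 4 genes, 1 fell (Zbp1), 1 rose (Ripk3) and 2 did not pass edgeR's test (Pgam5 and Mlkl). DESeq2's Wald test also called Pgam5 higher, and Mlkl passed neither. All changes were small, within 1.06-fold in either direction. The fall of Zbp1 is relative to the whole library and was not called relative to the non-targeting sgRNAs. A gene was tested on the reads summed over its 3 sgRNAs with edgeR's quasi-likelihood test, and it was called at a Benjamini-Hochberg adjusted p under 0.05 over all 76 genes. By this rule 36.8% of all genes were called in this comparison (16 higher and 12 lower), so 2 of 4 is close to the background. Levels below are CPM, the reads of an sgRNA scaled to a common library total with TMM factors (trimmed mean of M-values), summed over the 3 sgRNAs of a gene. Errors of log2 fold changes are standard errors (SE) from the values per mouse. They are not the errors behind edgeR's p-values, which come from its fit to the counts.

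Zbp1, the sensor, was the most abundant of the 4 targets. Its summed level in ITPK1-WT cells was 15048, 15115, 15445 and 15507 in vehicle mice 1 to 4 and 14414, 14708, 14350 and 14176 in IgA mice 5 to 8. Every IgA mouse lay below every vehicle mouse. The mean fell from 15278 ± 231 (SD, n = 4) to 14412 ± 222 (SD, n = 4), a log2 fold change of -0.083 (SE 0.016, 0.944-fold, edgeR adjusted p = 0.000798). All 3 sgRNAs had negative values. Zbp1-sg-2 fell by 0.11 (SE 0.035, edgeR adjusted p = 0.00441) and Zbp1-sg-3 fell by 0.10 (SE 0.029, edgeR adjusted p = 0.0182). Zbp1-sg-1, the most abundant, had -0.039 (SE 0.022, edgeR adjusted p = 0.354) and was not called. Scaled to the non-targeting sgRNAs, none of the 3 was called: Zbp1-sg-2 had -0.063 (edgeR adjusted p = 0.127), Zbp1-sg-3 had -0.051 (edgeR adjusted p = 0.292) and Zbp1-sg-1 had 0.012. The call on Zbp1-sg-3 was also lost without mouse 3, 4 or 8.

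Ripk3, the kinase that all routes to necroptosis pass through, changed in the opposite direction. Its summed level was 9854, 9863, 9676 and 9447 in the vehicle mice and 10234, 9880, 10473 and 10591 in the IgA mice. The arms did not overlap, although IgA mouse 6 stood only just above the highest vehicle mice. The mean rose from 9710 ± 196 (SD, n = 4) to 10295 ± 314 (SD, n = 4), a log2 fold change of 0.082 (SE 0.027, 1.06-fold, edgeR adjusted p = 0.0123). The 3 sgRNAs had values of 0.091, 0.057 and 0.10, of which that of Ripk3-sg-3 was called (edgeR adjusted p = 0.0435). That call held in 3 of the 8 fits that each left out 1 mouse, and was lost without mouse 1, 2, 3, 7 or 8. Scaled to the non-targeting sgRNAs, all 3 were called higher. The call on the gene was lost without mouse 7 (0.073, edgeR adjusted p = 0.0610) and without mouse 8 (0.068, edgeR adjusted p = 0.0527). IgA mouse 6 had the largest ITPK1-WT sort of its arm, 2000000 cells, against 1200000, 1000000 and 657000 for mice 5, 7 and 8. Among these IgA mice, the fewer cells were sorted, the higher were Ripk3 and Mlkl and the lower was Zbp1. Pgam5 did not follow that order. The part of cell number in these levels was not tested.

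Mlkl, whose product carries out the membrane damage, had summed levels of 10580 to 10810 in the vehicle mice and 10508 to 10825 in the IgA mice. The arms overlapped fully. Its log2 fold change was -0.0063 (SE 0.012, edgeR adjusted p = 0.822). Its sgRNAs did not move alike: Mlkl-sg-1 fell by 0.088 (edgeR adjusted p = 0.0494), whereas Mlkl-sg-2 had 0.073 (edgeR adjusted p = 0.174) and Mlkl-sg-3 had 0.011. The range of 0.16 between the sgRNAs of Mlkl was the widest of the 4 genes, against 0.048 for Ripk3. The log2 ratio of Mlkl-sg-1 to Mlkl-sg-2 within a library was 0.24 ± 0.057 (SD) in vehicle and 0.075 ± 0.14 (SD) in IgA mice, and these values overlapped between the arms. The call on Mlkl-sg-1 held in 1 of the 8 fits that each left out 1 mouse (that without mouse 6), and it was lost under DESeq2 and scaled to the non-targeting sgRNAs (-0.037), where Mlkl-sg-2 was called higher (0.13, edgeR adjusted p = 0.0212).

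Pgam5, the mitochondrial phosphatase, had summed levels of 9125, 9168, 9279 and 9020 in the vehicle mice and 9364, 9368, 9841 and 9358 in the IgA mice. Every IgA mouse lay above every vehicle mouse, and mouse 7 stood well above the other 3. The log2 fold change of 0.052 (SE 0.020) did not pass the test (edgeR adjusted p = 0.0994). It passed by DESeq2's Wald test (0.059, DESeq2 adjusted p = 0.0463), and by edgeR without mouse 6 (0.065, edgeR adjusted p = 0.0372). None of its 3 sgRNAs was called, with values of 0.082, 0.00037 and 0.048. Summed levels thus did not overlap between the arms for 3 of the 4 genes, where 31.6% of all genes had no overlap. By single sgRNA, however, the arms overlapped for all 3 of Ripk3 and all 3 of Pgam5. Of the 12 sgRNAs, 1 was called higher and 3 lower, where 27.8% of all sgRNAs were called. Scaled to the non-targeting sgRNAs, 5 were called higher and 0 lower.

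**Figure D1:**
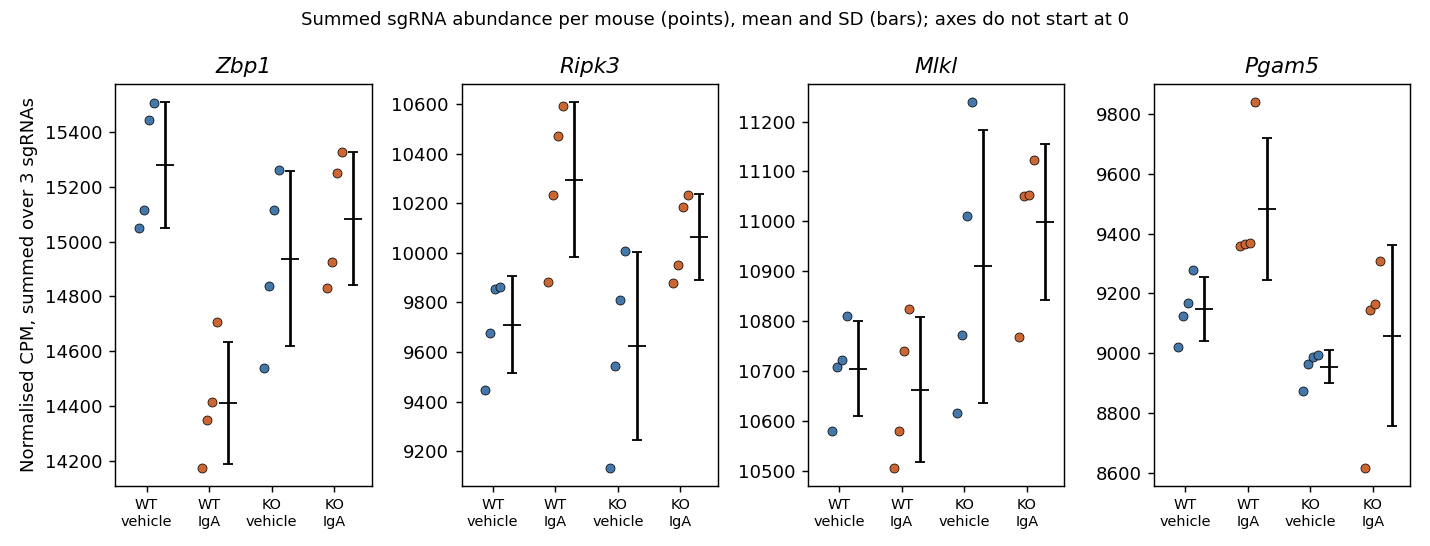
Summed level of the 3 sgRNAs of each gene (CPM after TMM scaling, y axis, not starting at 0) in each recovered library, by background and arm (x axis). Points are mice and bars are the mean and SD of 4 mice. In ITPK1-WT cells the IgA mice lie at 14176 to 14708 for Zbp1, below all vehicle mice, and for Ripk3 at 9880 to 10591, above all vehicle mice. In ITPK1-KO cells the arms overlap for all 4 genes.

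The mean log2 level of the 3 sgRNAs was also tested by permuting the mice between the arms (exact, two-sided, 70 splits). Zbp1 reached an exact permutation p = 0.0286, the smallest that 4 against 4 mice can give, with 0.0987 after adjustment over the 76 genes. The exact permutation p was 0.0571 for Pgam5, 0.0857 for Ripk3 and 0.914 for Mlkl. As 22 of the 76 genes shared the smallest p, 0.0987 was the lowest adjusted p of any gene. No gene could thus pass the 0.05 threshold in this test, and it does not set the 4 apart from the others.

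The values depend on the reference. In ITPK1-WT cells the 24 non-targeting sgRNAs had a median log2 fold change of -0.059 under IgA, with a range of -0.21 to 0.16, and 8 of them were called lower and 1 higher. Their share of reads was 13.4% to 13.5% in the vehicle libraries and 12.8% to 13.2% in the IgA libraries. Of the 24, 23 lay below each of the 3 Ripk3 sgRNAs. The same number lay below Mlkl-sg-2 and Pgam5-sg-1, whereas 15, 1 and 5 lay below Zbp1-sg-1, Zbp1-sg-2 and Zbp1-sg-3. With the libraries scaled to the non-targeting sgRNAs, the split over all genes moved from 16 higher and 12 lower to 34 higher and 2 lower. Under that scaling Zbp1 had -0.031 and was no longer called (edgeR adjusted p = 0.169). Ripk3 had 0.13 (edgeR adjusted p = 0.000546), Pgam5 had 0.10 and was called (edgeR adjusted p = 0.00365), and Mlkl had 0.046 (edgeR adjusted p = 0.145). The direction of Ripk3 and Pgam5 was the same under both scalings, whereas the value of Mlkl changed sign without passing the test in either.

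**Figure D2:**
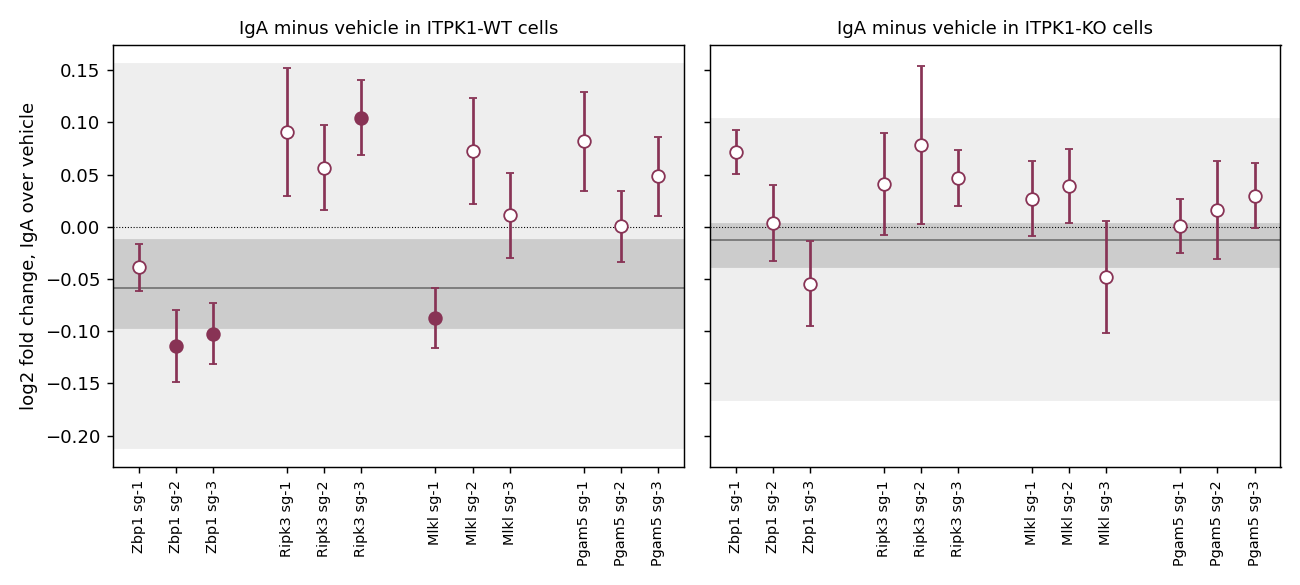
Log2 fold change of each of the 12 sgRNAs under IgA (y axis) in ITPK1-WT cells (left) and ITPK1-KO cells (right), with SE from 4 against 4 mice; filled points have an edgeR adjusted p under 0.05. The light band is the range of the 24 non-targeting sgRNAs, the dark band their interquartile range and the grey line their median, -0.059 on the left and -0.012 on the right.

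The labels of the read files carry sample numbers of 2 series, here called sample sheets. The first covers the vehicle mice and IgA mouse 5, and the second covers both starting libraries and IgA mice 6 to 8. Within the first sheet, mouse 5 differed from the mean of the vehicle mice by -0.084 for Zbp1, 0.076 for Ripk3, -0.017 for Mlkl and 0.034 for Pgam5 in ITPK1-WT cells. With the sheet as a covariate, Zbp1 had -0.084 (edgeR adjusted p = 0.0557) and Ripk3 had 0.076 (edgeR adjusted p = 0.210), so neither was called in a fit where mouse 5 alone is compared with vehicle within a sheet. In ITPK1-KO cells mouse 5 differed from the vehicle mean by 0.037 for Zbp1, 0.083 for Ripk3, 0.019 for Mlkl and 0.034 for Pgam5.

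Read counts of 2 genes in 1 library can also be set against each other, which needs no scaling. These ratios were added after the levels had been seen. In ITPK1-WT cells the log2 ratio of Zbp1 to Ripk3 was 0.61 to 0.72 in the vehicle mice and 0.42 to 0.57 in the IgA mice. The means were 0.65 ± 0.050 (SD, n = 4) and 0.49 ± 0.066 (SD, n = 4), a difference of -0.17 (SE 0.041). The ratio of Zbp1 to Pgam5 differed by -0.14 (SE 0.027) and that of Zbp1 to Mlkl by -0.078 (SE 0.022), and in both every IgA mouse lay below every vehicle mouse. The ratio of Ripk3 to Mlkl was higher in every IgA mouse, by 0.090 (SE 0.022). The ratios of Ripk3 to Pgam5 and of Mlkl to Pgam5 overlapped between the arms. In all, 4 of the 6 pairs among these genes had no overlap, where 32.2% of all pairs of the 76 genes had none. For Zbp1 to Ripk3 and Zbp1 to Pgam5 the lack of overlap follows from the summed levels given above, so it adds no support to them. The 6 pairs share the same 4 genes and are not separate results. With 4 mice per arm these ratios were not tested beyond their overlap.

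**Figure D3:**
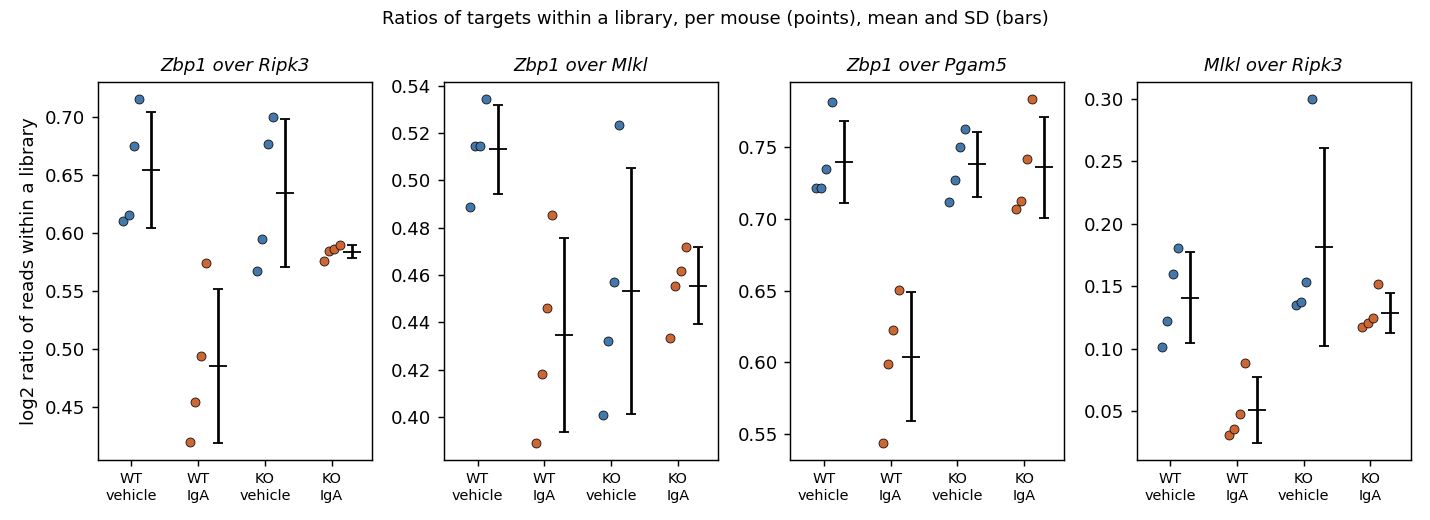
Log2 ratio of the summed reads of 2 genes within a library (y axis) by background and arm (x axis); points are mice, bars are the mean and SD of 4 mice. In ITPK1-WT cells the ratios of Zbp1 to Ripk3, Mlkl and Pgam5 and of Mlkl to Ripk3 are lower in all IgA mice, whereas in ITPK1-KO cells the arms overlap for all of these pairs.

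The second comparison asked the same in cells without ITPK1. None of the 4 genes passed edgeR's quasi-likelihood test, DESeq2's Wald test or limma, where 13.2% of all genes passed the first. The log2 fold changes were 0.058 for Ripk3 (SE 0.031, edgeR adjusted p = 0.138), 0.016 for Pgam5 (SE 0.025), 0.013 for Zbp1 (SE 0.019) and 0.013 for Mlkl (SE 0.021), with edgeR adjusted p of 0.657 to 0.684 for the last 3. At an unadjusted p under 0.05, edgeR would call 1 of the 4, Ripk3. Summed levels of Zbp1 were 15260, 14537, 14837 and 15116 in the vehicle mice and 15327, 14925, 14830 and 15251 in the IgA mice. The IgA mice lay within or just above the spread of the vehicle mice. Those of Ripk3 were 9545, 9809, 9134 and 10008 in the vehicle mice and 10186, 9950, 9879 and 10232 in the IgA mice. Vehicle mouse 3, the library with the fewest reads, was the lowest. Mlkl ran from 10618 to 11239 in vehicle and from 10769 to 11122 in IgA mice, and Pgam5 from 8875 to 8995 and from 8617 to 9309. The arms overlapped for all 4 genes, where 21.1% of all genes had no overlap.

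None of the 12 sgRNAs was called in ITPK1-KO cells by edgeR or by DESeq2, where by edgeR 10.4% of all tested sgRNAs were. At an unadjusted p under 0.05, edgeR would call 2 of them, Zbp1-sg-1 (0.072, SE 0.021) and Ripk3-sg-2 (0.078). For Ripk3-sg-2 the log2 difference from the values per mouse was 0.097 (SE 0.075). The arms overlapped for both sgRNAs. The sgRNAs of Zbp1 spanned both signs, from -0.054 for Zbp1-sg-3 to 0.072 for Zbp1-sg-1, whereas all 3 of Ripk3 and all 3 of Pgam5 had positive values. The non-targeting sgRNAs had a median of -0.012. Scaled to them, Ripk3 had 0.074 and was called (edgeR adjusted p = 0.0349), and the other 3 genes were not. No pair among the 4 genes had log2 ratios without overlap between the arms, where 23.3% of all pairs had. For Zbp1 to Ripk3 the ratio was 0.63 ± 0.064 (SD, n = 4) in vehicle and 0.58 ± 0.0058 (SD, n = 4) in IgA mice.

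The third comparison tested whether the response to IgA differed between the backgrounds, in 1 fit of all 16 recovered libraries. Of the 4 genes only Zbp1 passed, where 6.58% of all genes did. With ITPK1 deleted, its response was higher by 0.090 (SE 0.027, edgeR adjusted p = 0.0155). Within a mouse, the difference between its libraries overlapped between the arms, and the exact permutation p was 0.0571. None of the 4 genes was free of such overlap, where 7.89% of all genes were. The call on Zbp1 was lost without mouse 2, 3, 4, 5 or 8, where the difference was at least 0.072 and the edgeR adjusted p at most 0.125. Scaled to the non-targeting sgRNAs the difference was 0.059 (edgeR adjusted p = 0.190), and the call was lost. With the sample sheet as a covariate it was 0.089 (edgeR adjusted p = 0.0172). Both libraries of a mouse lie in the same sheet, so this covariate could hardly move the difference and is no check on it. A sheet effect that differs between the backgrounds was not tested.

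The other 3 genes showed no difference that passed the test. The value was -0.029 for Ripk3 (SE 0.042, edgeR adjusted p = 0.740), 0.013 for Mlkl (SE 0.023, edgeR adjusted p = 0.817) and -0.042 for Pgam5 (SE 0.045, edgeR adjusted p = 0.605). Ripk3 was called in ITPK1-WT and not in ITPK1-KO cells, and the test of the difference does not separate the backgrounds. Among the 12 sgRNAs none was called by edgeR or by DESeq2, where by edgeR 3.97% of all were. The 3 of Zbp1 had 0.10, 0.11 and 0.042, and 3 of the 12 would be called by edgeR at an unadjusted p under 0.05 (Zbp1-sg-1, Zbp1-sg-2 and Mlkl-sg-1). Ratios within a library were compared on the log2 scale and without a test. The change under IgA was higher in ITPK1-KO cells by 0.12 (SE 0.052) for Zbp1 to Ripk3 and by 0.081 (SE 0.041) for Zbp1 to Mlkl. For Zbp1 to Pgam5 it was higher by 0.13 (SE 0.041). Within a mouse, the difference between the libraries overlapped between the arms for the ratios to Ripk3 and to Mlkl, and not for that to Pgam5.

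The backgrounds were also compared within each arm. These values include the starting difference between the separately transduced pools. In vehicle mice none of the 4 genes was called, where 47.4% of all genes were, and none (0) had an unadjusted edgeR p under 0.05. DESeq2 and limma called none of them either. The values ran from -0.033 for Zbp1 (SE 0.018) to 0.025 for Mlkl (SE 0.016). None of the 12 sgRNAs was called by edgeR or by DESeq2, where by edgeR 31.7% of all were, and 1 had an unadjusted edgeR p under 0.05 (Pgam5-sg-1, -0.083, SE 0.024). Pgam5 was lower in the ITPK1-KO library of all 4 vehicle mice, by a log2 difference of -0.032 (SE 0.011), without passing the test.

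In IgA mice 2 of the 4 genes were called, where 44.7% of all genes were. Zbp1 was higher in the ITPK1-KO than in the ITPK1-WT library of all 4 mice, by 0.057 (SE 0.020, edgeR adjusted p = 0.00761). Pgam5 was lower in all 4, by a log2 difference of -0.074 (SE 0.043, edgeR adjusted p = 0.0154). The SE is that of the 4 differences within a mouse, whereas the p comes from a fit that did not pair the libraries. Over mice the difference was thus less than 2 SE. Without mouse 7 the value for Pgam5 was -0.037 (edgeR adjusted p = 0.197), and Zbp1 was not called without mouse 5 or mouse 8. Ripk3 had -0.039 (edgeR adjusted p = 0.209) and Mlkl had 0.038 (edgeR adjusted p = 0.119). Scaled to the non-targeting sgRNAs, Zbp1 had 0.016 (edgeR adjusted p = 0.516), whereas Ripk3 with -0.080 (edgeR adjusted p = 0.0166) and Pgam5 with -0.12 were called lower. Of the 12 sgRNAs, 3 were called, where 34.9% of all were: Pgam5-sg-1 (-0.17, edgeR adjusted p = 0.00015), Mlkl-sg-1 (0.087, edgeR adjusted p = 0.0375) and Zbp1-sg-1 (0.073, edgeR adjusted p = 0.0412). The sgRNAs of Pgam5 did not move alike: Pgam5-sg-2 had -0.093 (edgeR adjusted p = 0.211) and Pgam5-sg-3 had 0.032, of the opposite sign.

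Recovered cells were then set against the library from before injection, relative to the median non-targeting sgRNA. This is a description, since each pool has 1 starting library, with a sample number of the second sheet. In ITPK1-WT cells of vehicle mice all 4 genes stood slightly above their start, by 0.087 ± 0.011 (SD, n = 4) for Zbp1, 0.056 ± 0.046 for Ripk3, 0.037 ± 0.022 for Mlkl and 0.037 ± 0.020 for Pgam5, on the log2 scale. In IgA mice Ripk3 stood 0.20 ± 0.072 above its start, Pgam5 0.14 ± 0.045, Mlkl 0.095 ± 0.041 and Zbp1 0.060 ± 0.015. Zbp1 thus stood highest of the 4 in vehicle and lowest in IgA mice, where Ripk3 stood highest. Without the subtraction of the non-targeting median, Zbp1 in ITPK1-WT cells of IgA mice stood at -0.011. In ITPK1-KO cells the mean changes ran from -0.077 for Pgam5 in vehicle to 0.050 for Ripk3 in IgA mice. Over all 76 genes the median absolute change was 0.037 in ITPK1-WT vehicle, 0.092 in ITPK1-WT IgA, 0.035 in ITPK1-KO vehicle and 0.037 in ITPK1-KO IgA libraries.

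A list of 20 other genes of the pathway was drawn up, of which the library targets 11, and each was tested by edgeR as above. In ITPK1-WT cells 5 of the 11 rose under IgA and 2 fell, where 36.8% of all genes were called. Those that rose were Ipmk (0.44), Itpk1 (0.45), Cyld (0.13), its partner Spata2 (0.12) and the receptor Tnfrsf1a (0.061). Those that fell were Fadd (-0.14), the caspase-8 adaptor, and Ripk1 (-0.072), the upstream kinase. The enzymes of Ipmk and Itpk1 make the inositol phosphates described above for MLKL in human cells, and a link to MLKL was not tested here. Ripk1 was not called with the non-targeting sgRNAs as reference (-0.020) or with the sample sheet as a covariate (-0.0044). With that covariate Spata2 and Tnfrsf1a were not called either. The median of the 11 was 0.037 and that of all 76 genes was -0.0033. In ITPK1-KO cells 1 rose, Cyld (0.19), and 1 fell, Ripk1 (-0.26), which is near the 13.2% of all genes. The difference between the backgrounds passed for 3 of the 11, where 6.58% of all genes passed. The response to IgA was lower in ITPK1-KO cells for all 3: Ripk1 (-0.19), Itpk1 (-0.48) and Ipmk (-0.62). ITPK1-KO cells already lack ITPK1, so a difference for Itpk1 is part of the design. Ipmk was scarce in them, with mean summed levels of 476 CPM in vehicle and 430 CPM in IgA mice, against 3169 and 4329 CPM in ITPK1-WT cells. Between the backgrounds, 4 of the 11 were called higher and 5 lower in vehicle mice, where 47.4% of all genes were called. In IgA mice 2 were called higher and 4 lower, where 44.7% of all genes were. Against Ripk1 within a library, all 4 necroptosis genes had higher log2 ratios in every IgA mouse than in every vehicle mouse in ITPK1-KO cells, by 0.27 for Zbp1, 0.32 for Ripk3, 0.27 for Mlkl and 0.27 for Pgam5. The same held for 92.0% of the 75 other genes, so this is no feature of the 4. Ripk1 had the lowest log2 fold change of the 76 genes there. In ITPK1-WT cells the log2 ratio to Ripk1 was higher in every IgA mouse for Ripk3, by 0.16 (SE 0.040), and for Pgam5, by 0.12 (SE 0.036), where 34.7% of the 75 other genes had no overlap. For Zbp1 it differed by -0.013 (SE 0.025), and the arms overlapped.

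Libraries of 1 group also differed among themselves. After the mean of each background and arm was subtracted, the 16 recovered libraries gave, for each gene, the 2 targets whose level followed it most closely by Pearson correlation. These were Alox12 (0.79) and Bid (0.65) for Zbp1, Mag (0.75) and Ipmk (0.61) for Ripk3, Alox15 (0.75) and Bcl2l11 (0.70) for Mlkl, and Alox15 (0.64) and Mlkl (0.61) for Pgam5. Among the 4 genes, Mlkl and Pgam5 were the closest pair, and Zbp1 and Ripk3 the most opposed (-0.26). The median correlation with all other genes was between -0.0082 and 0.033. The libraries share their scaling and total, and these values are a description chosen as the highest of 75.

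The authors' deposited table for ITPK1-WT cells gives a false discovery rate of 0.998 for all 12 sgRNAs, and it has none of 252 under 0.05. The log2 fold changes in the authors' deposited table were 0.16, 0.11 and 0.17 for the Ripk3 sgRNAs and 0.043, -0.028 and -0.041 for those of Zbp1. In the authors' deposited table the median non-targeting sgRNA stood at -0.00013 and the median of all sgRNAs at 0.055, which places its reference near the non-targeting sgRNAs. For ITPK1-KO cells the authors' deposited table has 12 sgRNAs under 0.05, none of them against these genes, and the lowest false discovery rate among their sgRNAs was 0.684, for Zbp1-sg-1.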

How the data were processed

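Raw counts of reads per sgRNA and library were deposited by the authors, who aligned reads to the sgRNA reference and removed those with mismatches, per the labels, which name no aligner. The arm and cells sorted come from the authors' deposited legend. The log2 fold changes and the p-values and false discovery rates quoted as the authors' come from deposited MAGeCK 0.5.6 tables, per the file headers; their 4 columns of joined per-sample values were not used. Column names follow the legend's sample numbers.

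Counts per sgRNA, or summed per gene, were tested with edgeR 4.0.16 (R 4.3.3; quasi-likelihood, TMM scaling, prior count 2, mean of at least 10 reads, Benjamini-Hochberg over all features, threshold 0.05). IgA was tested against vehicle in each background, and all 16 recovered libraries entered the fits across backgrounds. SE and SD are over mice. Exact permutation p-values were adjusted over all 76 genes, not over the 12 member tests first planned. Change from start added 0.5 reads. The tests of IgA and of its difference between backgrounds were tried on simulated data. The planted changes were larger than those called here for the 4 genes, so the recovery of changes of their size was not tested. Alternatives were other scalings, filters, limma 3.58.1, DESeq2 1.42.0, the sheet as a covariate, the mouse as a block and each mouse left out.

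Libraries of a mouse come from the same animal, so mouse numbers pair the backgrounds; residuals of the paired libraries correlated at -0.084 to 0.258 over 238 sgRNAs. Named genes were the 4 members, pathway genes called in an IgA comparison or their difference, and 2 correlated targets per member; Ripk1 also served as the partner in ratios. Members and lists were chosen with earlier results of these data known. Mice are separate animals that received cells of 1 transduced pool per background.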

Additional observations from a re-analysis of the deposited data

Results flagged for a closer look

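Of 64 groups of 4 libraries examined for a sample far from the others by Dixon's test at the 95% level, 2 had one, and chance alone flags about 5% of groups. In ITPK1-WT cells, the summed level of Pgam5 in IgA mouse 7 was 9841.14 CPM, whereas the other 3 IgA mice lay between 9358 and 9368 CPM. In ITPK1-KO cells, Zbp1-sg-3 stood at 4483.3 CPM in IgA mouse 5 and at 4109 to 4163 CPM in the other 3 IgA mice. The response of Zbp1 to IgA differed between the backgrounds, with a log2 difference of 0.089888 (ITPK1-KO minus ITPK1-WT; edgeR adjusted p = 0.0155), which was not called without mouse 2, 3, 4, 5 or 8.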

How the results depend on the processing

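Counts here are of the 4 genes or 12 sgRNAs called by edgeR. In no result did a called value change sign under any alternative. With the sample sheet as a covariate, 0 genes (2 in the report) and 1 sgRNA (4 in the report) were called for IgA in ITPK1-WT cells. DESeq2's Wald test called 3 genes there, Pgam5 being the one added. Scaled to the non-targeting sgRNAs, 5 sgRNAs were called higher and 0 lower in ITPK1-WT cells (1 and 3 in the report), 1 gene and 1 sgRNA were called for IgA in ITPK1-KO cells (0 and 0 in the report), 0 genes for the difference between backgrounds (1 in the report) and 1 sgRNA between backgrounds in IgA mice (3 in the report). With 1 mouse left out, the counts ran from 1 to 3 genes and 1 to 5 sgRNAs for IgA in ITPK1-WT cells, 0 genes and 0 to 1 sgRNA in ITPK1-KO cells, 0 to 1 gene and 0 to 1 sgRNA for the difference, 0 genes and 0 to 1 sgRNA between backgrounds in vehicle mice, and 1 to 2 genes and 1 to 3 sgRNAs in IgA mice. The cause of these changes was not tested.

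Over the whole table, the sheet as a covariate lowered the calls for IgA in ITPK1-WT cells from 28 to 10 genes and from 70 to 17 sgRNAs, and in ITPK1-KO cells from 10 to 5 genes and from 26 to 15 sgRNAs. Without mouse 7, 17 genes and 45 sgRNAs were called in ITPK1-WT cells, and without mouse 6 the difference had 17 sgRNAs (10 with all mice). Scaling to the non-targeting sgRNAs shifted the median gene by 0.052 in ITPK1-WT cells. The calls as higher and lower were then 70 and 6 sgRNAs in ITPK1-WT cells, 11 and 3 genes and 17 and 8 sgRNAs in ITPK1-KO cells, 1 and 4 genes and 2 and 7 sgRNAs for the difference, 11 and 20 genes between backgrounds in vehicle mice, and 6 and 30 genes and 18 and 63 sgRNAs in IgA mice. The main splits were 35 and 35, 6 and 4, 14 and 12, 2 and 3, 4 and 6, 17 and 19, 15 and 19, and 42 and 46.

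With the mouse as a replicate block, the difference of Zbp1 was 0.090 (edgeR adjusted p = 0.0108), and no call on the 4 genes or 12 sgRNAs was gained or lost. Counting error of 0.022 to 0.062 (log2, per sgRNA and library) is of the size of the changes seen, so single sgRNAs are read less firmly than genes.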
